A study of Mus musculus with 45 samples.

Results

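The genes described here are the fibrillar collagens of the mouse heart and the proteins that fold, crosslink and organise them: Col1a1, Col1a2, Col3a1, Col5a1, Col5a2, Serpinh1, P4ha1, Lox, Loxl1 and Postn. They were chosen by symbol, as the probe sets whose single annotated gene was one of these names, which gave 20 of the 22690 probe sets and 10 of the 12393 genes with such a probe set. Total RNA from 45 hearts of male C57BL/6 mice, 1 array per mouse, had been measured on Affymetrix arrays. RW mice, of regular weight, ate a diet with 5% of energy as fat. DIO mice, with diet-induced obesity, had been on a diet with 60% of energy as fat since the age of 6 weeks, for 9 weeks in all when exposure began. At 15 weeks of age the mice of both diets began nose-only exposure to filtered air (SC, the sham controls), mainstream smoke (MS, the smoke a smoker draws in) or sidestream smoke (SS, from the burning tip), for 5 hours a day in 8 exposures over 2 weeks. Hearts were taken the day after the last exposure. The groups were RW-SC (n = 8), RW-MS (n = 8), RW-SS (n = 7), DIO-SC (n = 8), DIO-MS (n = 6) and DIO-SS (n = 8). The diet protocol in the labels also speaks of an LPS exposure, while the titles, sample descriptions and treatment protocol give cigarette smoke, which is used here.

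Fibrillar collagen is made mainly by cardiac fibroblasts and carries the mechanical load of the heart wall. Its chains are hydroxylated on proline and wound into triple helices in the endoplasmic reticulum, where a dedicated chaperone holds them. After secretion the ends are trimmed, the molecules assemble into fibrils, and lysyl oxidases crosslink them. Excess collagen stiffens the heart and is the substance of cardiac fibrosis.

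The values are log2 expression, so a difference of 1 is a doubling, and no level is set against the level of another gene. Markers of the labelled tissue were present: Myh6, the main myosin heavy chain of the adult mouse heart, lay between 14.36 and 14.48 on every array, and the fibroblast receptor Pdgfra between 8.82 and 9.74. RW-MS 2, 6 and 8 stood apart, with a mean of 5 atrial markers of 6.17 to 7.16 against 11.27 to 11.79 on the other RW-MS arrays. The mean of 10 fibroblast markers was also lower on these 3 arrays, 9.21 to 9.32 against 9.38 to 9.65. So were the mean of 4 fat cell markers, 7.27 to 8.93 against 10.45 to 11.49, and that of 4 smooth muscle markers, 8.57 to 8.92 against 9.08 to 10.14. RW-SS 2 and 4 stood apart as well. Their red cell markers (Alas2, Slc4a1 and Bpgm, the 3 of 6 listed that were tested) averaged 8.65 and 9.13, above the 6.87 to 8.21 of the other 43 arrays. All 10 collagen genes were lower on RW-SS 2 and on RW-SS 4 than on any of the other 5 RW-SS arrays. The smooth muscle marker mean was lower on both as well, 8.67 and 7.88 against 8.92 to 9.62. The fibroblast mean, 9.41 and 9.31 against 9.36 to 9.63, was below the other RW-SS arrays on RW-SS 4 only. So was the fat cell mean, 10.52 and 8.08 against 9.86 to 11.70. No other marker mean was below all the other RW-SS arrays on RW-SS 2 or RW-SS 4. Values without RW-MS 2, 6 and 8 and without RW-SS 2 and 4 are given beside the results of RW-MS and RW-SS. The choice to leave out RW-SS 2 and 4 was made after seeing the data. RW-SS 7 had the largest excess of 3' over 5' signal for Gapdh, 0.94 on the log2 scale, against at most 0.40 on the other arrays.

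All 10 genes were above the level below which the dimmest 25% of genes were set aside, leaving 9295 genes to test. The group with the highest mean was DIO-SS for 7 of the 10, DIO-SC for Serpinh1 and P4ha1, and RW-SC for Col5a1. The lowest mean was in RW-MS for 5 genes, in RW-SS for 4 and in RW-SC for Lox. The genes varied within groups by an SD of 0.15 to 0.34, against a median of 0.11 over all genes tested.

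**Figure D1:**
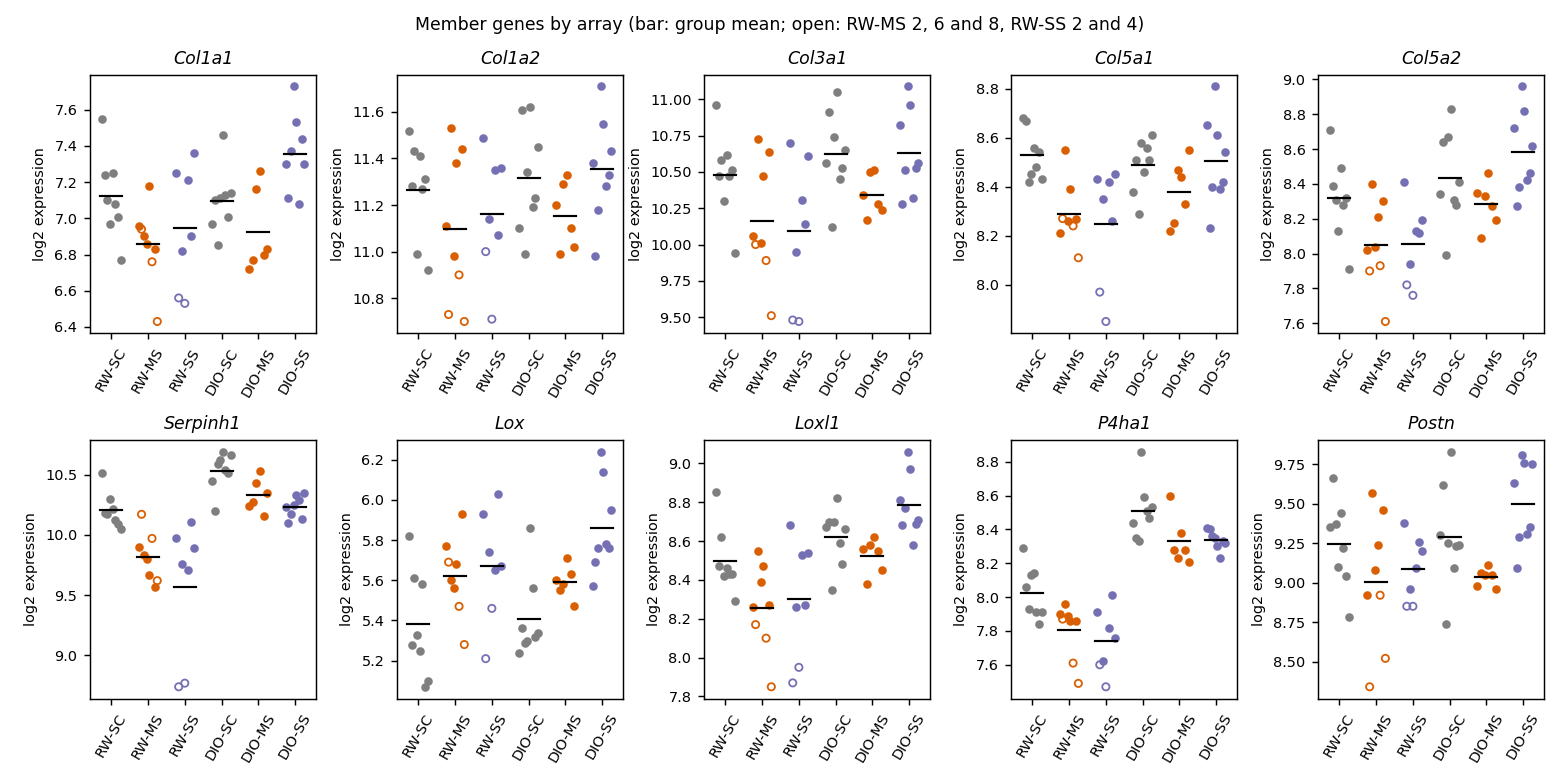
Log2 expression of each of the 10 genes on 45 arrays, by group (1 point per array, bar at the group mean, open points for RW-MS 2, 6 and 8 and for RW-SS 2 and 4). Serpinh1 on RW-SS 2 and 4 lies at 8.74 and 8.77, far below the other 5 RW-SS arrays. For the brighter P4ha1 probe set, shown here, no RW array reaches the DIO arrays of the same exposure.

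Serpinh1 encodes HSP47, the chaperone that binds procollagen in the endoplasmic reticulum. In RW hearts its level in filtered air was 10.05 at the lowest, 10.18 at the median and 10.51 at the highest. After sidestream smoke the 7 arrays were at 8.74 to 10.11 with a median of 9.76. After mainstream smoke the 8 arrays were at 9.57 to 10.17 with a median of 9.81. Of the smoke arrays, 6 of 7 with sidestream and 7 of 8 with mainstream smoke lay below every air array, so that 1 array of each smoke group reached into the range of the air group. Sidestream smoke lowered Serpinh1 by 1.56-fold (log2 difference -0.64 ± 0.13, SE, adjusted p = 0.000363). With RW-SS 2 and 4 left out the difference was -0.31 (adjusted p = 0.00851), smaller in size but still past the threshold of 0.05. For mainstream smoke the difference was -0.39 ± 0.13 (adjusted p = 0.0532). That value passed without RW-MS 2 (-0.44, adjusted p = 0.0308) and without RW-SS 2 and 4, which narrowed the pooled spread (adjusted p = 0.000532). It was -0.45 with an adjusted p of 0.0645 without RW-MS 2, 6 and 8.

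The second Serpinh1 probe set moved the same way in sidestream smoke, by -0.37 (adjusted p = 0.000551 over all probe sets). The brighter of both, which stands for the gene, has an identifier of the kind that marks probes shared with other transcripts, so its value may not come from Serpinh1 alone. In DIO hearts Serpinh1 was at 10.20 to 10.69 in air, with a median of 10.57. It was at 10.16 to 10.53 after mainstream and 10.10 to 10.35 after sidestream smoke, with medians of 10.31 and 10.24. All 8 sidestream arrays were below the mean of the air arrays, but only 3 were below every one of them. The sidestream difference was -0.30 ± 0.13 (adjusted p = 0.0642), the second probe set gave -0.23 (adjusted p = 0.0256), and without RW-SS 2 and 4 or without DIO-SC 2 the gene's adjusted p was 0.00214 and 0.0369. The test of whether the sidestream effect differed between DIO and RW gave 0.34 for Serpinh1 (adjusted p = 0.158), and 0.01 (adjusted p = 0.943) without RW-SS 2 and 4.

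Promoters are shown for Serpinh1, which had the largest fall of the 10 after sidestream smoke in RW, and for Col1a2. On its brighter probe set Col1a2 passed the test in no comparison. The promoters are the 250 bases before the annotated start, from RefSeq on build GRCm38.p6, read 5' to 3' on the strand of the gene: chr7:99353240-99353489 on the minus strand for Serpinh1 and chr6:4505368-4505617 on the plus strand for Col1a2. Capitals mark GGGCGG, the GC box, and ACGTG, the core of the hypoxia response element and of the unfolded protein response element, searched on both strands (CCGCCC and CACGT are the reverse complements).
Serpinh1: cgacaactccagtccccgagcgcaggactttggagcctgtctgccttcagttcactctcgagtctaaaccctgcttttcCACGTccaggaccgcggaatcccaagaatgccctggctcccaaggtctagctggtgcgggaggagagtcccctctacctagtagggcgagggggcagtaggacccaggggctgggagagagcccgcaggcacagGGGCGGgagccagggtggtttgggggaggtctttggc
Col1a2: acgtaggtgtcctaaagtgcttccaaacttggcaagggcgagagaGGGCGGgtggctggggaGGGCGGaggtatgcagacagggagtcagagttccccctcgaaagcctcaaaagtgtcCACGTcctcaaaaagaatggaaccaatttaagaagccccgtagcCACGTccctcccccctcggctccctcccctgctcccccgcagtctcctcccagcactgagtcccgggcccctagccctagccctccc
Serpinh1 held 1 GC box, 37 bases before the start, and 1 ACGTG core, 171 bases before it. Col1a2 held 2 GC boxes, 205 and 188 bases before the start, and 2 ACGTG cores, 131 and 87 bases before it. Of 32851 mouse promoters of the same length, 32.7% held a GC box and 16.6% an ACGTG core. Neither window held TATAAA, found in 12.4%, and Col1a2 alone held CCAAT, found in 33.8%. No match overlapped another. Of the 10 genes, 6 had a promoter entry. The windows of P4ha1 and Col5a1 reached into the annotated gene and are not printed.

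P4ha1 encodes a catalytic subunit of prolyl 4-hydroxylase, whose hydroxyprolines hold the collagen helix together. On its brighter probe set it separated the diets in every exposure. In filtered air the RW arrays were at 7.84 to 8.29 with a median of 8.00 and the DIO arrays at 8.33 to 8.86 with a median of 8.49. After mainstream smoke RW was at 7.49 to 7.96 (median 7.86) and DIO at 8.21 to 8.60 (median 8.28). After sidestream smoke RW was at 7.47 to 8.01 (median 7.76) and DIO at 8.23 to 8.41 (median 8.34). On this probe set the RW and DIO arrays did not overlap in any of the 3 exposures. On the other they overlapped in air, with RW up to 6.47 and DIO from 6.38. They also did so after mainstream smoke, with RW up to 6.46 and DIO from 6.44, but not after sidestream smoke. The share of all genes without overlap is not given here. DIO exceeded RW by 0.48 ± 0.07 in air (1.40-fold, adjusted p = 5.84e-06), 0.52 ± 0.08 after mainstream smoke (adjusted p = 8.37e-06) and 0.59 ± 0.08 after sidestream smoke (adjusted p = 1.24e-07). The other P4ha1 probe set gave 0.40 in air (adjusted p = 0.00119) and 0.61 after sidestream smoke (adjusted p = 1.6e-06). The sidestream value was 0.51 without RW-SS 2 and 4 (adjusted p = 8.27e-06), and the mainstream value was 0.44 without RW-MS 2, 6 and 8 (adjusted p = 0.000398).

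Within RW, sidestream smoke lowered P4ha1 by a log2 difference of -0.29 ± 0.08 (adjusted p = 0.0049), with 5 of 7 arrays below every air array. This was -0.20 without RW-SS 2 and 4 (adjusted p = 0.0694), which did not pass. The second probe set gave -0.48 (adjusted p = 8.92e-05) on all arrays. After mainstream smoke the difference was -0.22 ± 0.07 (adjusted p = 0.0547), and the test passed without RW-SC 7 (adjusted p = 0.0399), RW-SC 8 (0.0485) or RW-MS 3 (0.0384). It was -0.14 without RW-MS 2, 6 and 8 (adjusted p = 0.387). In DIO the differences were -0.18 ± 0.08 for mainstream and -0.18 ± 0.07 for sidestream smoke (adjusted p = 0.199 and 0.0609). The latter passed without DIO-SC 2 (adjusted p = 0.0411) or DIO-SC 3 (0.0394), without RW-MS 2, 6 and 8 (0.0439) and without RW-SS 2 and 4 (0.0492). The other probe set gave -0.26 (adjusted p = 0.0215).

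Lox, the lysyl oxidase that starts collagen and elastin crosslinks, was the only one of the 10 genes with a higher mean after smoke in RW, and in DIO after mainstream smoke. In DIO after sidestream smoke 8 of the 10 had a higher mean, Lox among them. In RW air hearts it was at 5.07 to 5.82 with a median of 5.30, and after sidestream smoke at 5.21 to 6.03 with a median of 5.67. In DIO air hearts it was at 5.24 to 5.86 with a median of 5.33, and after sidestream smoke at 5.57 to 6.24 with a median of 5.77. The groups overlapped in both diets, although all 8 DIO-SS arrays were above the DIO-SC mean. The difference in DIO was 0.45 ± 0.11 (1.37-fold, adjusted p = 0.00138). In RW it was 0.29 ± 0.11 (adjusted p = 0.0476), and 0.43 (adjusted p = 0.0074) without RW-SS 2 and 4. The RW call was lost without any one of RW-SC 2, 4, 5, 7 and 8 and of RW-SS 1, 3, 5, 6 and 7, with adjusted p-values of 0.0603 to 0.128. After mainstream smoke Lox differed by 0.25 in RW (adjusted p = 0.173, and 0.33 with an adjusted p of 0.113 without RW-MS 2, 6 and 8) and 0.18 in DIO (adjusted p = 0.44). Of the 3 Lox probe sets this one was the brightest. The other 2 gave 0.12 and -0.04 for sidestream smoke in DIO (adjusted p = 0.295 and 0.71), so the rise of Lox rests on 1 of its 3 probe sets. Loxl1, a lysyl oxidase known for its role in elastic fibres, did not follow Lox in RW, with -0.24 after mainstream and -0.19 after sidestream smoke (adjusted p = 0.128 and 0.139). These were -0.11 without RW-MS 2, 6 and 8 (adjusted p = 0.638) and -0.04 without RW-SS 2 and 4 (adjusted p = 0.82). The sidestream value passed without RW-SS 1, at -0.26 (adjusted p = 0.0469).

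The 5 collagen chains build type I (Col1a1, Col1a2), type III (Col3a1) and type V (Col5a1, Col5a2) fibrils, the last setting fibril diameter. In RW hearts every chain had a lower mean after either smoke, by -0.17 to -0.32 after mainstream and -0.10 to -0.38 after sidestream smoke, and only Col5a1 passed the test. The sign of Col1a2 turned without the arrays set apart, to 0.02 after mainstream smoke without RW-MS 2, 6 and 8 and to 0.02 after sidestream smoke without RW-SS 2 and 4. Col5a1 was at 8.42 to 8.68 in air (median 8.51), 8.11 to 8.55 after mainstream (median 8.27) and 7.85 to 8.45 after sidestream smoke (median 8.35). Of the smoke arrays, 7 of 8 and 5 of 7 lay below every air array. The differences were -0.24 ± 0.08 (adjusted p = 0.0402) and -0.28 ± 0.08 (adjusted p = 0.00645). Without RW-MS 2, 6 and 8 the first was -0.20 (adjusted p = 0.22). It was also lost without any one of RW-SC 1, 2, 5 and 7 and RW-MS 1, 2, 4, 6 and 8, with adjusted p-values of 0.0561 to 0.0953. The second was -0.15 without RW-SS 2 and 4 (adjusted p = 0.145). Of the other 2 Col5a1 probe sets, 1 gave -0.02 and the other, dim one 0.17 for sidestream smoke (adjusted p = 0.893 and 0.085), so the probe sets of Col5a1 disagreed.

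Col3a1 had the largest SD within groups of the 10 genes, 0.34. It was at 9.94 to 10.96 in RW air (median 10.49), 9.51 to 10.73 after mainstream (median 10.04) and 9.47 to 10.70 after sidestream smoke (median 10.14). The 3 groups overlapped, with 2 arrays of each smoke group below every air array. Its differences were -0.32 ± 0.16 (adjusted p = 0.272) and -0.38 ± 0.17 (adjusted p = 0.0904). The first was -0.10 without RW-MS 2, 6 and 8 (adjusted p = 0.837), and the second -0.14 without RW-SS 2 and 4 (adjusted p = 0.613). Leaving out RW-SC 8, RW-SS 1 or RW-SS 7 brought the second past the threshold, at adjusted p = 0.0433, 0.0324 and 0.042. Col5a2 differed by -0.27 after either smoke (adjusted p = 0.157 and 0.0898). Its values were -0.12 without RW-MS 2, 6 and 8 (adjusted p = 0.668) and -0.16 without RW-SS 2 and 4 (adjusted p = 0.397), and the sidestream value passed without RW-SC 8 (-0.32, adjusted p = 0.038) or RW-SS 1 (-0.32, adjusted p = 0.0408). The second, dimmer Col5a2 probe set averaged 5.45 in RW-SC, 5.20 in RW-MS and 5.38 in RW-SS, a smaller fall after sidestream smoke. Col1a1, the first chain of type I collagen, differed by -0.26 and -0.18 (adjusted p = 0.17 and 0.28), and by -0.17 and -0.01 without the arrays set apart (adjusted p = 0.517 and 0.951). Col1a2, the second chain, read from its brighter probe set, had group means between 11.09 in RW-MS and 11.36 in DIO-SS. It did not pass in any of the 11 comparisons. Its 95% intervals were -0.41 to 0.07 for mainstream smoke in RW and -0.05 to 0.44 for DIO-SS against RW-SS, which leave room for changes of those sizes. The dimmer Col1a2 probe set averaged 7.76 in RW-SC, 7.55 in RW-SS, 7.73 in DIO-SC and 7.95 in DIO-SS. On the brighter one these means were 11.26, 11.16, 11.32 and 11.36. The lack of a call is thus that of the brighter probe set only. Postn, periostin, a matrix protein of activated fibroblasts, differed by -0.24 after mainstream and -0.16 after sidestream smoke in RW (adjusted p = 0.355 and 0.441). These were 0.01 without RW-MS 2, 6 and 8 (adjusted p = 0.98) and -0.07 without RW-SS 2 and 4 (adjusted p = 0.813).

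Counted over the 10 genes, 1 fell after mainstream smoke in RW (Col5a1) against 4% of all genes tested. The median difference was -0.24, while that of all genes was 0.00. On RW-MS 2, 6 and 8, which had few atrial transcripts, Col1a2, Col3a1, Col5a2, Loxl1 and Postn were below all 5 other RW-MS arrays, whereas Serpinh1 on RW-MS 2 and 6 was above all of them. Without these arrays 0 of 10 genes passed and the median was -0.12, while 2.37% of all genes were lower. After sidestream smoke in RW, 3 fell (Serpinh1, P4ha1 and Col5a1) against 13% of all genes, and 1 rose (Lox) against 11.7%. The median moved from -0.23 to -0.10 when RW-SS 2 and 4 were left out, and Serpinh1 then still fell and Lox rose, where 9.98% of all genes fell and 7.51% rose. In bulk heart RNA, fewer cells of a type and less RNA per cell cannot be told apart. Of 10 fibroblast markers, 0 passed in RW after either smoke (limma), and their medians were -0.10 and -0.12. All 3 red cell markers were higher in RW-SS, with a median of 0.71, and their mean lay at 7.49 to 9.13 in RW-SS against 7.03 to 7.31 in RW-SC, without overlap. How many of all genes lacked overlap in this comparison is not given here. In mainstream smoke 4 of 5 atrial markers were lower in RW-MS. The part of the red cell, atrial, fat cell and smooth muscle markers in these results was not tested. Between RW-SS and RW-MS, 0 of the 10 genes passed (limma), 0 also at an unadjusted p under 0.05, where 5.82% of all genes passed in either direction. The count was 0 also without RW-MS 2, 6 and 8 (5.61% of all genes) and without RW-SS 2 and 4 (4.25% of all genes).

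**Figure D2:**
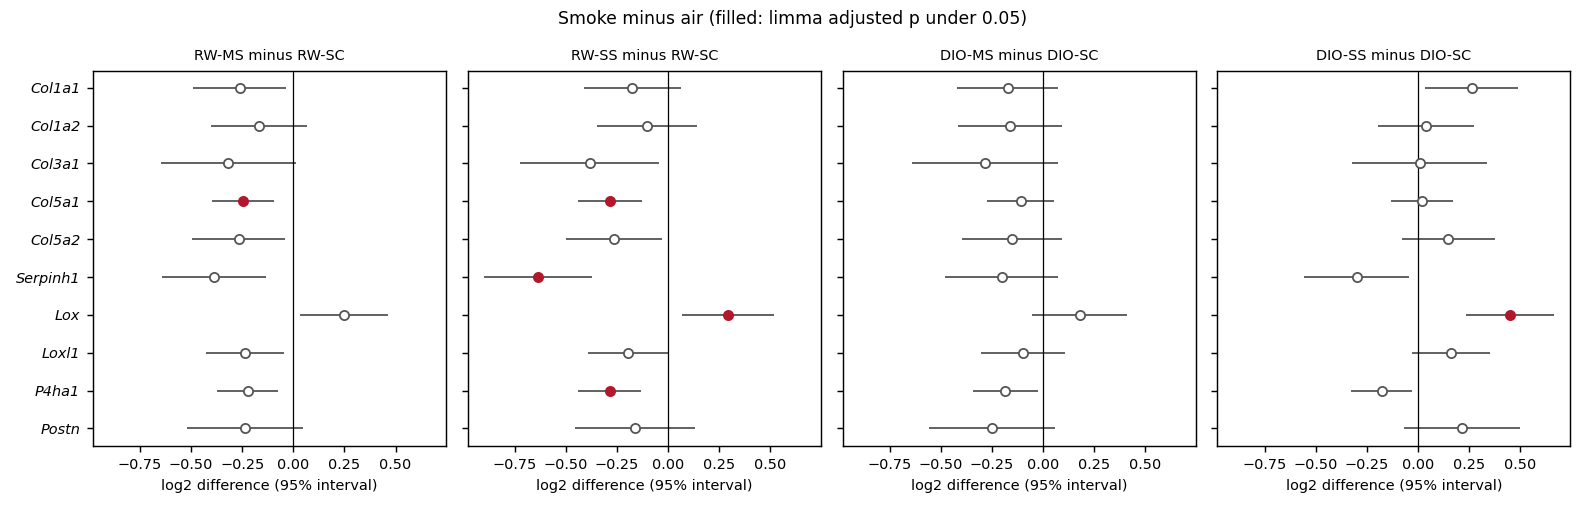
Log2 difference of smoke minus filtered air for the 10 genes, with 95% intervals, for mainstream and sidestream smoke in RW and in DIO mice (filled points passed the limma test at an adjusted p under 0.05). Serpinh1 has the lowest value in RW after sidestream smoke, -0.64, and Lox lies above 0 in all 4 panels.

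In DIO hearts, mainstream smoke changed 0 of the 10 genes (limma, 1 at an unadjusted p under 0.05), with 4.55% of all genes passing in either direction. After sidestream smoke 1 rose, Lox, where 23% of all genes rose. Leaving out RW-MS 2, 6 and 8 added P4ha1, lower, to the calls, where 9.37% of all genes were lower. Col1a1 differed by 0.26 (adjusted p = 0.0716) and passed without DIO-SC 5 (adjusted p = 0.0367), DIO-SS 2 (0.0478), DIO-SS 6 (0.0448), or RW-SS 2 and 4 (0.0485). The second, dimmer Col1a1 probe set differed less, with means of 6.66 in DIO-SS and 6.59 in DIO-SC. A second Col3a1 probe set, dimmer than the one that stands for the gene, was 0.58 higher (adjusted p = 0.0331), whereas the brighter gave 0.01 (adjusted p = 0.971), so the Col3a1 probe sets disagreed. The second Col5a2 probe set was 0.34 higher (adjusted p = 0.00961), against 0.15 (adjusted p = 0.321) for the brighter. DIO-SS exceeded DIO-MS for Col1a1, which was at 7.08 to 7.73 (median 7.34) and 6.72 to 7.26 (median 6.81). The difference was 0.43 ± 0.12 (adjusted p = 0.0441), for 1 of 10 genes against 1.59% of all genes. It was lost without any one of DIO-MS 1 to 4 and DIO-SS 1, 3, 4, 5, 7 and 8, with adjusted p-values of 0.0505 to 0.143. The dimmer Col1a1 probe set averaged 6.66 in DIO-SS and 6.41 in DIO-MS. With the mean of all probe sets the Col1a1 difference was 0.34 and did not pass (adjusted p = 0.0707). Postn, at 0.46 (adjusted p = 0.0716), passed without RW-MS 2, 6 and 8 (adjusted p = 0.0405).

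The diets were compared within each exposure. In filtered air 1 of the 10 genes rose in DIO, P4ha1, against 6.92% of all genes. Serpinh1 was at 10.53 ± 0.16 (SD, n = 8) in DIO-SC and 10.20 ± 0.15 (SD, n = 8) in RW-SC, with 5 of 8 DIO arrays above every RW array. The difference of 0.33 ± 0.13 had an adjusted p of 0.059. It passed without RW-SC 1 (0.37, adjusted p = 0.0386), without DIO-SC 2 (0.38, adjusted p = 0.0354) and without RW-SS 2 and 4 (adjusted p = 0.00145), and the second probe set gave 0.30 (adjusted p = 0.00615). The 5 collagen chains differed by -0.04 to 0.15 and did not pass. Of 4 fat cell markers tested, 1 was lower in DIO-SC than in RW-SC, where 13.3% of all genes were lower. Their median was -1.51, and their part was not tested. After mainstream smoke 2 rose in DIO, P4ha1 and Serpinh1 (0.51 ± 0.14, adjusted p = 0.0104), against 5.14% of all genes. Without RW-MS 2, 6 and 8 both passed, with Serpinh1 at 0.58 (adjusted p = 0.0106), where 4.82% of all genes were higher. In the same comparison 3 of 5 atrial markers and 2 of 10 fibroblast markers were higher in DIO, and their part was not tested. Loxl1 was 0.26 higher (adjusted p = 0.0889) and passed without RW-MS 3 (0.31, adjusted p = 0.048) and without RW-SS 2 and 4 (adjusted p = 0.0457), but was at 0.13 without RW-MS 2, 6 and 8 (adjusted p = 0.446).

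After sidestream smoke 8 of the 10 genes were higher in DIO than in RW, against 19.7% of all genes, and the median difference was 0.45 where that of all genes was 0.02. These were Serpinh1 (0.67), P4ha1 (0.59), Col3a1 (0.54), Col5a2 (0.53), Loxl1 (0.48), Postn (0.42), Col1a1 (0.41) and Col5a1 (0.26), with adjusted p-values from 1.24e-07 to 0.0254. Serpinh1 was higher on all 8 DIO arrays than the RW mean, and 7 of the 8 lay above every RW array. For Col5a2 the arrays were at 8.27 to 8.96 (median 8.54) in DIO-SS and 7.76 to 8.41 (median 8.12) in RW-SS, and for Loxl1 at 8.58 to 9.06 (median 8.74) and 7.87 to 8.68 (median 8.27). Both pairs of groups overlapped. The P4ha1 arrays did not overlap, and the share of all genes without overlap is not given here. Leaving out RW-SS 2 and 4 cut the count to 4 of 10, with P4ha1 at 0.51, Col5a2 at 0.42 (adjusted p = 0.0109), Serpinh1 at 0.34 (adjusted p = 0.00278) and Loxl1 at 0.33 (adjusted p = 0.0083), and the median was 0.31. At that setting 17% of all genes were higher, and Postn was at 0.32 (adjusted p = 0.129), Col3a1 at 0.29 (0.193), Col1a1 at 0.25 (0.108) and Col5a1 at 0.12 (0.199). The Postn call was lost without RW-SS 2, RW-SS 4, DIO-SS 4 or DIO-SS 5 alone, at adjusted p-values of 0.0545 to 0.0575. The dim Col5a1 probe set went the other way, at -0.25 (adjusted p = 0.0096), and with the mean of all probe sets Col5a1 was at 0.05 (adjusted p = 0.437). Beside these genes, 4 of 10 fibroblast markers and 4 of 6 endothelial markers were higher in DIO-SS, and 3 of 3 red cell markers were lower. The fibroblast mean was 9.51 to 9.77 in DIO-SS and 9.31 to 9.63 in RW-SS, the endothelial mean 8.29 to 8.46 and 8.14 to 8.34, and the red cell mean 6.97 to 7.77 and 7.49 to 9.13. Their part in the result was not tested.

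**Figure D3:**
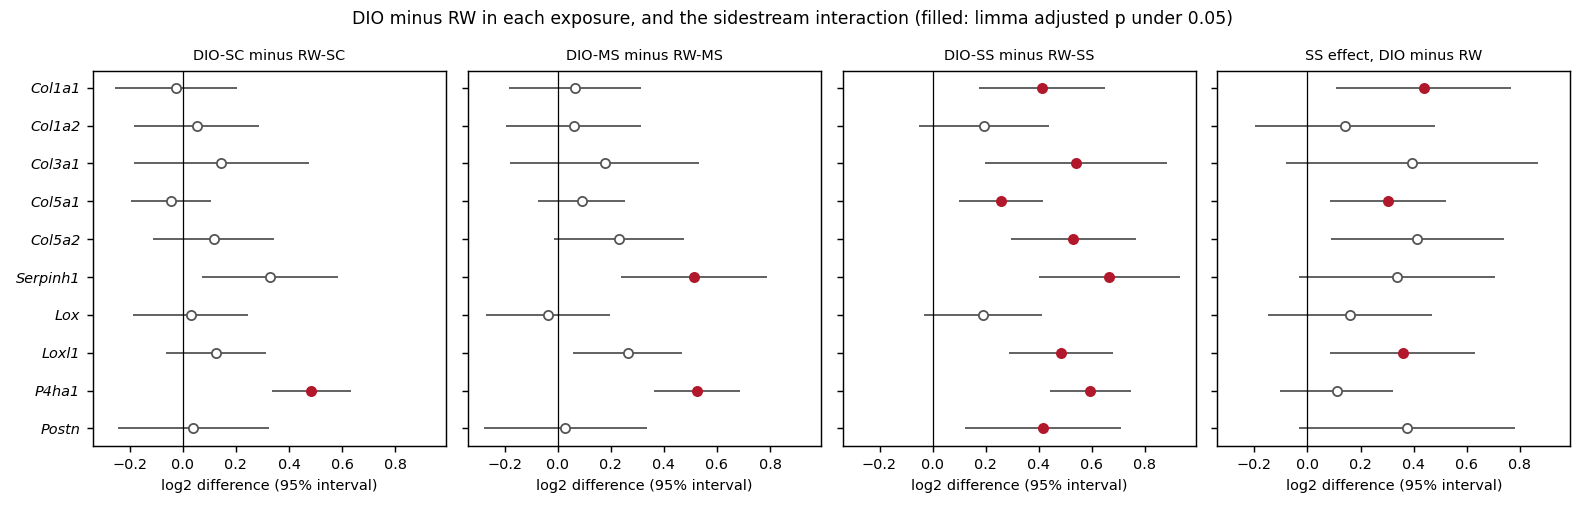
Log2 difference of DIO minus RW within filtered air, mainstream and sidestream smoke, and the difference between the sidestream effect in DIO and in RW, with 95% intervals (filled points passed the limma test at an adjusted p under 0.05). P4ha1 lies at 0.48, 0.52 and 0.59 in the 3 exposures, while collagen chains pass the test between diets only in sidestream smoke, where Col5a2 alone of them still passes without RW-SS 2 and 4.

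The design also asks whether smoke acted differently in the diets, as the difference between the smoke effect in DIO and that in RW. For mainstream smoke 0 of 10 genes passed (limma, 0 also at an unadjusted p under 0.05), and 0.226% of all genes. For sidestream smoke all 10 values were above 0, with a median of 0.35 against 0.06 for all genes. Col1a1 (0.44 ± 0.16, adjusted p = 0.0409), Loxl1 (0.36 ± 0.14, adjusted p = 0.0432) and Col5a1 (0.30 ± 0.11, adjusted p = 0.0338) passed, 3 of 10 where 18.3% of all genes passed in the same direction. Col5a2 was at 0.41 (adjusted p = 0.0502). It passed without any one of RW-SC 4 and 8, RW-SS 1 and 7, DIO-SC 2, 4 and 5 and DIO-SS 2, 3, 6 and 7, with adjusted p-values of 0.0253 to 0.0497. With RW-SS 2 and 4 left out these values were 0.28, 0.20, 0.17 and 0.31, 0 of 10 genes passed, and the median was 0.16. At that setting 15.7% of all genes passed above 0. The Col5a1 call rests on 1 of its 3 probe sets: the other 2 gave -0.0033 and -0.23 (adjusted p = 0.986 and 0.0911), and the mean of all 3 gave 0.02 (adjusted p = 0.826). Leaving out any one of RW-SC 1, 2, 3 and 5, RW-SS 2, 3, 4 and 6, DIO-SC 1, 3, 6 and 7 and DIO-SS 1, 4, 5 and 7 lost 1 or more of the 3 calls, with adjusted p-values of 0.05 to 0.0923. A further quantile normalization of the arrays gave 0.37, 0.26 and 0.19 for Col1a1, Loxl1 and Col5a1, and 0 of 10 genes passed. In the same test 3 of 10 fibroblast markers and 2 of 6 endothelial markers passed above 0, and 2 of 3 red cell markers below it, with list medians of 0.19, 0.18 and -0.65. Their part in the result was not tested.

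Seen array by array, the collagen chains moved together within groups. After subtracting group means, the 10 pairs among the 5 chains correlated at r = 0.70 to 0.94 over 45 arrays (Spearman's rho 0.67 to 0.95, adjusted permutation p of 2e-05 each over 45 pairs of genes, from a p of 1e-05, the smallest the permutations can give). Without RW-MS 2, 6 and 8 and RW-SS 2 and 4 the range was 0.62 to 0.94. Loxl1 followed the chains at r = 0.75 to 0.92 and Postn at 0.56 to 0.85. Serpinh1 correlated with them at 0.28 to 0.59, P4ha1 at 0.40 to 0.59 and Lox at 0.41 to 0.65. Without the 5 arrays these were 0.14 to 0.41, 0.14 to 0.46 and 0.18 to 0.56. Leaving out the 2 arrays farthest from the median of the first gene of a pair left 0.64 to 0.92 among the chains and 0.16 to 0.52 for Serpinh1.

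**Figure D4:**
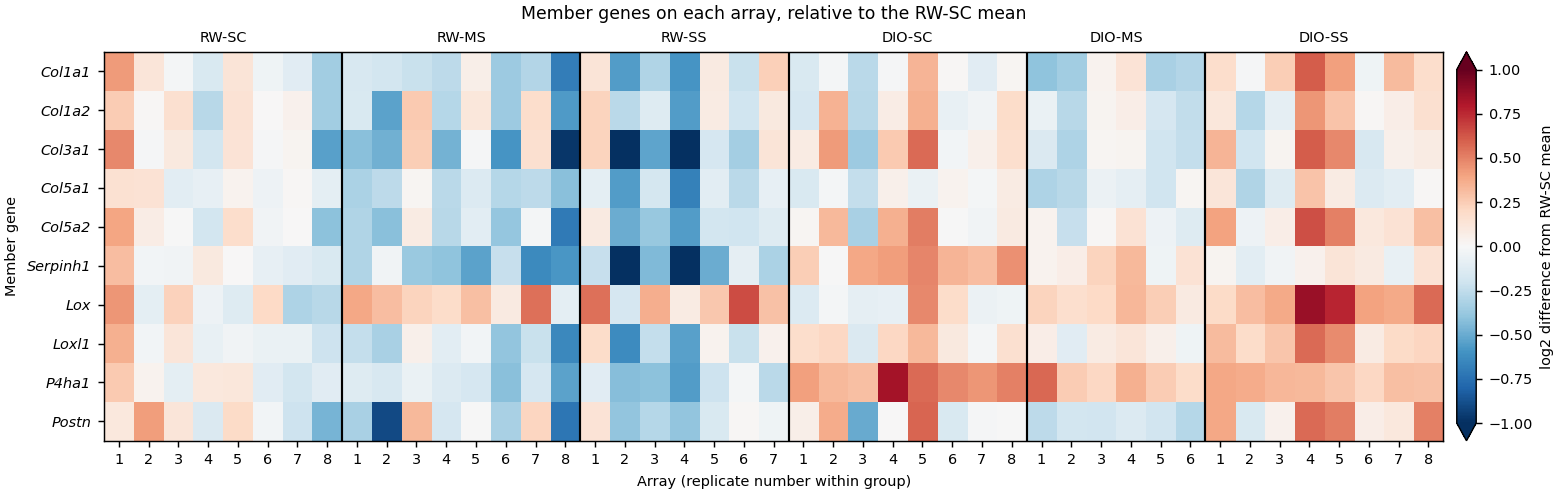
Log2 difference of each gene on each of 45 arrays from the RW-SC mean (rows: genes; columns: arrays in group order by replicate number; red higher, blue lower, colours saturating at 1). Columns of one colour across the collagen rows, such as RW-SS 2 and 4, RW-MS 8 and DIO-SS 4, show the chains moving together, and the P4ha1 row is red throughout the DIO arrays.

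The mean of 10 fibroblast markers, none of them among the 10 genes, was set against the 10 genes in the same way. Of these markers Lum, Dcn and Mfap5 are also matrix genes and Ddr2 a collagen receptor, listed as such below. The marker mean is thus not independent of matrix genes. Its correlation with the deviations of Col1a2 was r = 0.85 (rho 0.90), with Postn 0.72 (rho 0.72), Col3a1 0.72 (rho 0.79), Col5a2 0.69 (rho 0.74), Loxl1 0.61 (rho 0.70), Col5a1 0.50 (rho 0.52), Col1a1 0.46 (rho 0.58) and Lox 0.33 (rho 0.44). All 8 passed among 10 relations, with adjusted permutation p-values of 3.3e-05 to 0.0402. Serpinh1 (r = -0.02, rho 0.05, adjusted p = 0.909) and P4ha1 (r = 0.16, rho 0.22, adjusted p = 0.41) did not. Without the 2 arrays with the most extreme marker means the values ran from 0.10 for Serpinh1 to 0.87 for Col1a2. Without the 5 arrays set apart they were -0.24 for Serpinh1 and 0.81 for Col1a2. Array-to-array differences in all 5 collagen chains went with the mean of these fibroblast markers, some of which are matrix genes.

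**Figure D5:**
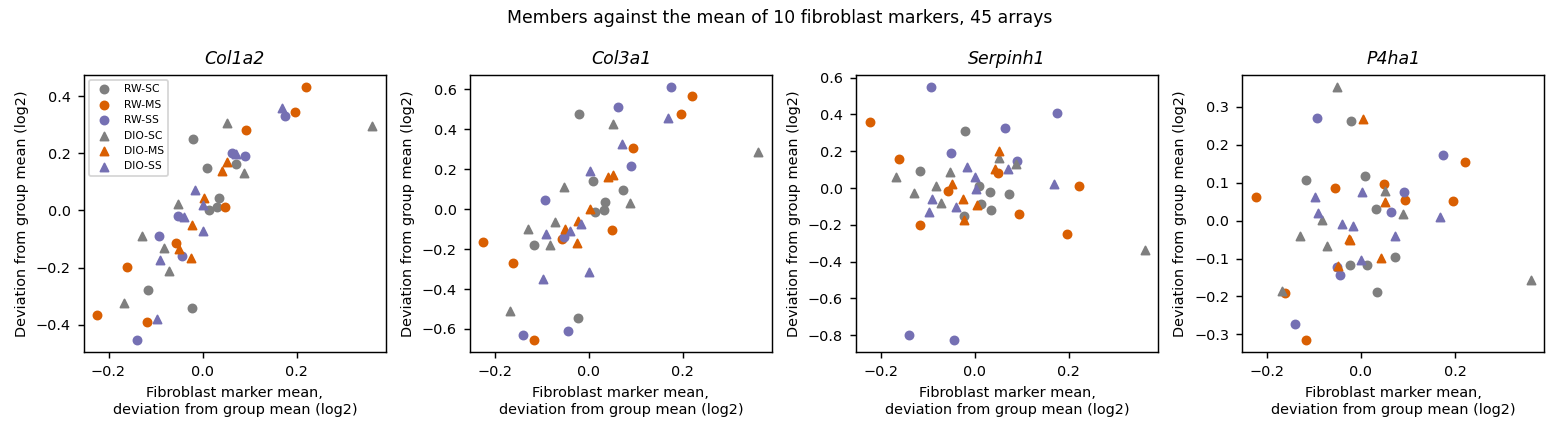
Deviation from the group mean of Col1a2, Col3a1, Serpinh1 and P4ha1 (vertical, log2) against that of the mean of 10 fibroblast markers (horizontal, log2), for 45 arrays (circles RW, triangles DIO; grey air, orange mainstream, purple sidestream). Points rise along a line for Col1a2 (r = 0.85) and Col3a1 (r = 0.72) and scatter without one for Serpinh1 (r = -0.02).

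The genes whose deviations were most like the mean of the 5 chains over 45 arrays were Fstl1 (r = 0.94), Sparc (0.93), Col6a2 (0.93), Mmp2 (0.89) and Ptgis (0.89), and without the 5 arrays these values were 0.85 to 0.92. Sparc encodes a collagen-binding matrix protein, Col6a2 a chain of type VI collagen and Mmp2 a gelatinase. Most like Serpinh1 were Alas1 (0.78), Fscn1 (0.74), Mb (0.70), Egln3 (0.70) and Lpin1 (0.68). Without the 5 arrays these fell to between 0.28 for Mb and 0.54 for Egln3, so the likeness was weaker without them.

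Around the 10 genes, 54 of 73 listed genes of collagen making, trimming, fibril assembly, uptake and TGF-beta signalling were tested. Lum, Dcn, Mfap5 and Ddr2 among them also count as fibroblast markers above. After mainstream smoke in RW 0 rose and 3 fell, where 2.86% of all genes rose and 4% fell. These were Vcan, a proteoglycan, by -0.33, Plod1, a lysyl hydroxylase of collagen, by -0.30, and Col6a2 by -0.25. Without RW-MS 2, 6 and 8 only Plod1 fell (-0.34, adjusted p = 0.000739), against 2.37% of all genes. After sidestream smoke in RW 1 rose, Eln, the elastin gene (0.33), and 9 fell, among them Tgfb2, a TGF-beta ligand (-0.49), Vcan (-0.37), Plod1 (-0.36) and Col6a2 (-0.30). Over all genes 11.7% rose and 13% fell. When RW-SS 2 and 4 were left out, 4 fell and 1 rose (9.98% and 7.51% of all genes), with Tgfb2 at -0.44 and Plod1 at -0.28 still past the threshold. The list median was -0.05 after sidestream smoke, against 0.00 for all genes.

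In DIO, mainstream smoke changed 0 of the 54, against 4.55% of all genes. Sidestream smoke raised 3, among them the receptor Tgfbr2 (0.27) and P3h4, a partner of lysyl hydroxylase (0.20), and lowered 4, among them Smad7, an inhibitor of TGF-beta signalling (-0.27), Pcolce, the enhancer of procollagen trimming (-0.23) and the collagen receptor Ddr2 (-0.20). Over all genes 23% rose and 8.82% fell. In filtered air DIO exceeded RW for P3h4 (0.35), Smad7 (0.31) and P4ha2, the second prolyl 4-hydroxylase subunit (0.29), and was below it for Tgfbi (-0.39) and Pcolce2 (-0.22), so that 3 of the 54 were higher and 2 lower, against 6.92% and 13.3% of all genes. After sidestream smoke DIO exceeded RW for 19 of the 54 and was below it for 0, against 19.7% and 12.9% of all genes. The largest values were P3h4 (0.59), P4ha2 (0.48), Tgfb2 (0.43), P3h3, a prolyl 3-hydroxylase relative (0.41) and Tgfb3 (0.37). All 5 held without RW-SS 2 and 4, when 13 were higher and 3 lower, against 17% and 10.5% of all genes. The sidestream effect differed between diets for 10 of the 54, 9 above 0, including Vcan (0.53), Tgfb2 (0.46), Lum (0.39) and P3h3 (0.36), and Smad7 below (-0.36). These counts, 9 above 0 and 1 below, stand against 18.3% and 10.1% of all genes. With both arrays left out, 6 were above 0 and 2 below (15.7% and 8.77% of all genes), and Vcan (0.45), Tgfb2 (0.41) and Smad7 (-0.31) passed while Lum and P3h3 did not.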

How the data were processed

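The authors deposited log2 expression values per probe set, made by RMA per the submitters' processing notes. RMA corrects background, normalizes arrays by quantiles and summarises probes, with the aim of making values of different arrays comparable. A further quantile normalization of the deposited values still moved calls, as given at the end. Scanner files were not used here. Of 22690 probe sets, 20380 had a single gene in the platform annotation. Each gene was read from its brightest probe set (highest mean over all arrays). Genes with means under 4.90, the dimmest 25%, were set aside, and 9295 were tested.

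A limma 3.58.1 fit (R 4.3.3) with 1 mean per group used all 45 arrays, with Benjamini-Hochberg adjustment per comparison, a threshold of 0.05 and 11 comparisons. Deviations from group means were correlated with 100000 permutations within groups (numpy 2.4.6), two-sided. The fit was tested on simulated data with 200 of 9295 genes changed. For RW-SS against RW-SC it recovered 77% of 1.2-fold and 97% of 1.5-fold changes. For the sidestream interaction it recovered 39.5% and 93%, so many 1.2-fold differences would be missed there. These shares are over all changed genes. The 10 genes described varied more within groups, with an SD of 0.15 to 0.34 against a median of 0.11. Recovery for genes that variable is not given and may be lower. The share of calls that were false was 3.13% to 7.18%.

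All 10 genes are described. Listed pathway genes are named among the 5 largest changes called in a comparison, and by likeness the 5 genes with the highest r. The genes and lists were chosen with earlier results of these data known. The labels call the arrays biological replicates. Replicate numbers were not used as pairs, because in no comparison did every same-numbered pair correlate above 0.1. That rule asks for every pair at once, so it cannot exclude a pairing or a batch. The number of arrays limits the precision. Alternatives changed the filter, probe set rule, normalization, weights, spread, blocks and arrays.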

Additional observations from a re-analysis of the deposited data

Results flagged for a closer look

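The sidestream effect differed between DIO and RW mice for Col1a1 (0.44), Col5a1 (0.30) and Loxl1 (0.36), by the limma test of the difference itself on the log2 scale. Of the values without RW-SS 2 and 4, 0.28, 0.17 and 0.20, none passed, and the adjusted p-values were 0.192, 0.192 and 0.227. The Col5a1 value was 0.02 with the mean of its 3 probe sets (adjusted p = 0.826). None of the 60 sets of arrays examined (10 genes in 6 groups) held a single array far from the rest, where chance would give about 1 in 20. This check cannot find 2 arrays that lie low together. RW-SS 2 and 4 did so, with Serpinh1 at 8.74 and 8.77 against 9.71 to 10.11 on the other RW-SS arrays.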

How the results depend on the processing

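Over 12 alternatives, 1231 of 1309 single-gene results stayed on their side of the threshold, 38 calls were lost and 40 gained. The sign turned for 42 values, 0 of them called. Counts of the 10 genes called moved by over 1.5 times as follows. For RW-MS against RW-SC (1 as reported), 0 passed without a filter, with every probe set tested or without RW-MS 2, 6 and 8. In the same comparison 2 passed with trend and robust variance or with only the groups compared, and 3 with the lowest 50% of genes left out (which removes Lox) or without RW-SS 2 and 4. For RW-SS against RW-SC (4) it was 2 without RW-SS 2 and 4. For DIO-SS against DIO-SC (1), 0 passed with the lowest 50% left out. There 2 passed without RW-MS 2, 6 and 8, 3 with array weights or further quantile normalization, and 4 with the mean of all probe sets, only the groups compared or without RW-SS 2 and 4. For DIO-SC against RW-SC (1), 2 passed with the mean of all probe sets, array weights, only the groups compared or without RW-SS 2 and 4. For DIO-SS against DIO-MS (1), 0 passed without a filter, with every probe set tested, the mean of all probe sets or further quantile normalization, 2 with array weights or without RW-MS 2, 6 and 8, and 3 with only the groups compared. For DIO-SS against RW-SS (8) it was 4 without RW-SS 2 and 4. For the sidestream interaction (3), 0 passed with further quantile normalization or without RW-SS 2 and 4. Without RW-SS 2 and 4, all genes passing in either direction were 7.29% for RW-MS and 17.5% for RW-SS against RW-SC. They were 31.8% for DIO-SS and DIO-SC, 20.5% for DIO-SC and RW-SC, 27.5% for DIO-SS and RW-SS. For the sidestream interaction they were 24.5%. Without RW-MS 2, 6 and 8 they were 4.09% for RW-MS and RW-SC, 33.3% for DIO-SS and DIO-SC, 3.43% for DIO-SS and DIO-MS. Shares at other settings are not given beside these counts. Apart from the missing arrays and genes named, the cause was not tested.

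Whether the replicate numbers pair the arrays is not known. By the title's number, the median r of same-numbered pairs ran from -0.20 for DIO-SC and RW-SC to 0.20 for RW-SS and RW-MS. With the number in the description as a replicate block, 2 genes passed for DIO-SS against DIO-SC, 0 for DIO-SS against DIO-MS and 0 for the sidestream interaction, and with the title's number no count moved by over 1.5 times.

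With each array left out in turn, counts were 0 to 2 for RW-MS and 3 to 6 for RW-SS against RW-SC, 1 to 3 for DIO-SS against DIO-SC, 1 to 2 for DIO-SC against RW-SC, 0 to 1 for DIO-SS against DIO-MS and 0 to 4 for the sidestream interaction. They were 2 to 3 for DIO-MS against RW-MS and 7 to 8 for DIO-SS against RW-SS. The shares of all genes with each array left out are not given here, so these counts show only how the calls moved.

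Further quantile normalization also moved the share of higher calls over all genes. It was 1700 of 2641 and became 623 of 1587 for the sidestream interaction, 2140 of 2960 against 1303 of 2215 for DIO-SS and DIO-SC, and 1832 of 3030 against 1142 of 2584 for DIO-SS and RW-SS. For RW-SS and RW-SC it was 1083 of 2288 against 1378 of 2266, for DIO-SC and RW-SC 643 of 1882 against 773 of 1674, for RW-MS and RW-SC 266 of 638 against 363 of 699, for RW-SS and RW-MS 204 of 541 against 297 of 533, and for DIO-SS and DIO-MS 148 of 237 against 38 of 100. The deposited values carry no background measure, so signal over background is unknown, and Lox lay at the 12.3 percentile of the genes tested.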
